A study of Homo sapiens with 8 samples.

Results

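Open chromatin that separated the first 2 stages of a cardiac differentiation from the last 2 was described here as 2 sets of genomic regions. The peaks of all 8 libraries on chromosomes 1 to 22 and X were merged into 285853 regions. A region was called late when it held a peak in all 4 lists of the cardiac progenitor and cardiomyocyte stages and in no list of the stem cell and mesoderm stages, and early when it held the reverse. The rule gave 1280 late and 4554 early regions, beside 28115 regions with a peak in all 8 lists.

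The libraries were made by ATAC-seq, in which a transposase cuts and tags DNA that is not covered by nucleosomes, from RUES2 cells, a line of human embryonic stem cells. Each of 4 stages had 2 replicates: undifferentiated hESCs on day 0 (ESC), mesoderm on day 2 (MES), cardiac progenitors on day 5 (CP) and cardiomyocytes on day 14 (CM). All cells, the day 0 samples included, had spent a day in E8 medium with the Wnt activator CHIR-99021; MES, CP and CM cells then received RBA medium with more CHIR-99021, CP and CM cells the Wnt inhibitor Xav-939 from day 3, and CM cells B27 medium from day 7. Every library came from 1 cell line, and the stages are whole cultures, so a smaller fraction of cells with an open site and a less open site in every cell cannot be told apart.

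Open sites far from promoters are mostly enhancers, where transcription factors bind their motifs and displace nucleosomes. Pluripotent cells keep such sites open with OCT4, SOX2 and NANOG. Cardiac progenitors and cardiomyocytes use GATA4, NKX2-5, HAND, TBX and MEF2 factors, and sarcomere and ion channel genes are among those they control.

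The sequences of the highest members show what these sites look like. They are the 121 bases of hg38 (forward strand) around the summit of the region's highest peak, for the 4 late and 4 early regions with the highest value of the lowest fold among the 4 libraries of their pair of stages, and for the highest regions in loci of a listed cardiac gene and of 2 listed pluripotency genes. Capitals mark a match to 1 of 9 motifs searched by their letters on both strands. Among the motifs of cardiac factors, AGATAA stood for GATA factors. For the NKX factors the letters searched were TNAAGTG, and for the T-box factors of mesoderm and heart they were AGGTGTGA. TEAD, an effector of Hippo signalling, was searched as GGAATG, and the E-box bound by HAND proteins as CATCTG. Of the factors of pluripotent cells, OCT proteins were searched as the octamer ATGCAAAT, and the SOX family by the letters ACAATGG. LEF-TCF, the nuclear effectors of Wnt signalling, were searched as ATCAAAG, and the AP-1 dimer of FOS and JUN proteins as TGANTCA. Longer motifs for MEF2, CTCF and the joint OCT-SOX site were searched too and are given by name. A match is a match of letters and does not show that a factor was bound. The late regions come first, with the gene of the nearest protein-coding TSS.
MRPS30, late, chr5:44871514-44871634: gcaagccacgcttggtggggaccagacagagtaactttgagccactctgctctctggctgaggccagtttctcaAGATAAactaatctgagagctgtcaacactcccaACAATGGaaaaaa
TGFB2, late, chr1:218735701-218735821: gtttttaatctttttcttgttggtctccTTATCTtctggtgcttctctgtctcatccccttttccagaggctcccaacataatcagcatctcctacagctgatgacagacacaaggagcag
SLC6A15, late, chr12:84741891-84742011: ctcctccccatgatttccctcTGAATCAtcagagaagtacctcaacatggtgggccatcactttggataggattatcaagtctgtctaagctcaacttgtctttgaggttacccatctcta
ARID2, late, chr12:45705545-45705665: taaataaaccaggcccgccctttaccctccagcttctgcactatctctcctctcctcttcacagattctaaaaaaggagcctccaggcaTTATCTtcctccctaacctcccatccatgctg
SLC8A1, late, chr2:40130435-40130555: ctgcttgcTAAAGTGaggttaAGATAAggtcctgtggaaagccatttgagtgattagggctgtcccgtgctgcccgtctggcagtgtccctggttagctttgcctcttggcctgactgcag
The early regions follow.
CDH2, early, chr18:28287276-28287396: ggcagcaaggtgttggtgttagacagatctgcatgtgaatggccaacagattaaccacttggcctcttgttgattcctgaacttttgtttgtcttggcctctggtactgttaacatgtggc
MAGEC2, early, chrX:142233512-142233632: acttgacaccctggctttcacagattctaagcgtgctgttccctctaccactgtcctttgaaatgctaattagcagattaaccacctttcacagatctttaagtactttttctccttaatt
EDIL3, early, chr5:85501011-85501131: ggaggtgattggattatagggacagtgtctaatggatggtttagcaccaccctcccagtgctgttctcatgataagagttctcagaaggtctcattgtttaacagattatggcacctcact
DHFR2, early, chr3:95408222-95408342: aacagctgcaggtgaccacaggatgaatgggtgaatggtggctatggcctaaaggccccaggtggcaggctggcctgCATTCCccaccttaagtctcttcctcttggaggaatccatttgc
FGF2, early, chr4:122828430-122828550: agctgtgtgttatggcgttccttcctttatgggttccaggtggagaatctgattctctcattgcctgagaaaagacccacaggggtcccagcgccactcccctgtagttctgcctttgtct
L1TD1, early, chr1:62198566-62198686: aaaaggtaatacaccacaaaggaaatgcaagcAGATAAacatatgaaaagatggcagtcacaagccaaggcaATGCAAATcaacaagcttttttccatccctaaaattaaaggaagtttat
Of these 5 late windows, those near MRPS30, TGFB2, ARID2 and SLC8A1 hold a GATA match, that near MRPS30 also a SOX match, that near SLC6A15 an AP-1 match, and the window in the sodium-calcium exchanger gene SLC8A1 also holds an NKX match. The 6 early windows hold a TEAD match near DHFR2 and an OCT and a GATA match in L1TD1, a gene for an RNA-binding protein of pluripotent cells. The other 4 early windows hold none of the 9.

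Before any comparison, the libraries themselves differed. The 4 early lists held 103118 to 156179 peaks and the 4 late lists 55777 to 120133, and the files carry no read totals. The numbers of early and late regions, and of genes that hold them, were not corrected for list length. With lists cut to 55777 peaks each, far fewer early regions were left, as given in the closing sections. How much of the larger number of early regions, and of genes that hold them, follows list length was not tested. The level that MACS2 took as background came to 2.54 to 4.62 reads per position. The CP replicates lay farthest apart at the members. The median height of the late regions (fold over local background at the peak summit) was 4.49 in CP replicate 1 against 8.31 in CP replicate 2, 5.21 in CM replicate 1 and 5.77 in CM replicate 2. CP replicate 1 had the lowest −log10 q of the 4 late lists at 724 of the 1280 late regions (56.6%), and MES replicate 1 the lowest of the 4 early lists at 2006 of the 4554 early regions. The medians of the early regions were 5.20 and 5.53 in ESC and 4.75 and 5.06 in MES.

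**Figure D1:**
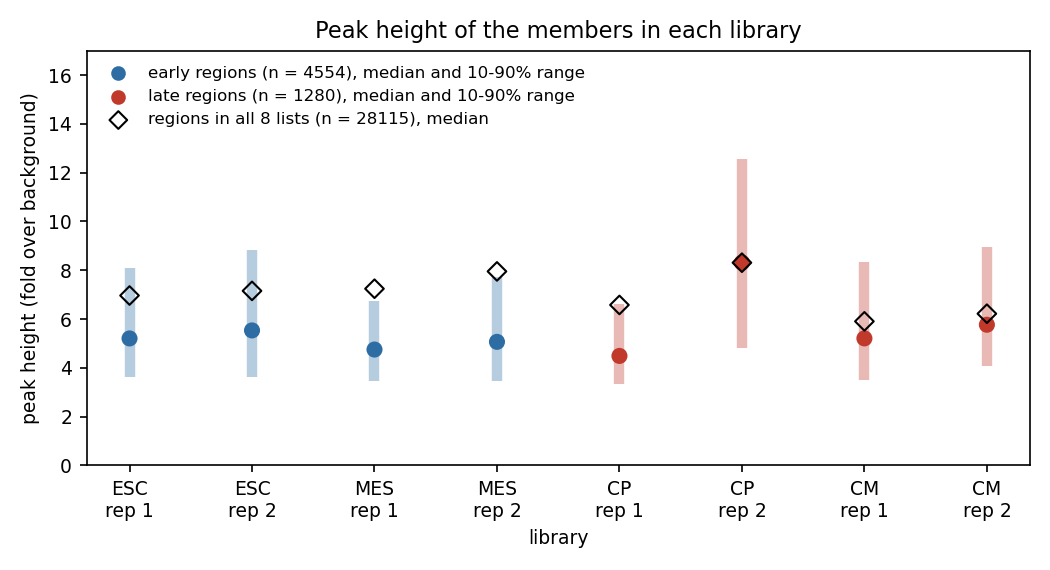
Peak height in each of the 8 libraries, as fold over local background: filled points are medians over the 4554 early regions (ESC and MES) or the 1280 late regions (CP and CM), bars run from the 10th to the 90th percentile, and open diamonds are medians over the 28115 regions with a peak in all 8 lists. CP replicate 2 is the highest of the late libraries at the members, at 8.31, and CP replicate 1 the lowest, at 4.49.

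The stage labels were checked against markers of the stages and of other cell types. A peak within 1 kb of the TSS of NANOG, a pluripotency factor, was called in all 4 early libraries and in no late one. A peak at the TSS of MYH6, the atrial myosin heavy chain, was called in CP replicate 2 and in both CM replicates and in no other library. The TSS of POU5F1, which encodes OCT4, had a peak in every library but CM replicate 2, and TSSs of GATA4, NKX2-5, HAND1 and TNNT2 were open at both ends of the series, GATA4 in all but ESC replicate 1. The mesoderm markers TBXT, MIXL1, EOMES and MESP1 had promoter peaks in all 8 libraries, so none of them set MES apart. SOX2, PRDM14, TBX5 and ACTN2 also had promoter peaks in all 8. That of ACTN2 was at 9.22 and 8.49 in ESC and 6.99 and 7.26 in CM. NPPA had a promoter peak in CM replicate 1 only. No library had a peak at the TSS of MYH7, CDH5 or AFP. Promoter peaks of PAX6, SOX1, SOX17 and COL1A1, markers of neural, endodermal and stromal cells, were called in all 8 libraries. Others were not: PECAM1 had one in ESC replicate 2 and MES replicate 1 only, TAL1 in every library but the CP ones, WT1 in every library but the CM ones, and FOXA2 in every library but CM replicate 2.

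The sets rest on strict agreement of 4 lists. A further 3079 regions held a peak in 3 of 4 late lists and in no early list, and CP replicate 1 was the list without a peak at 1907 of them. A further 852 held a peak in all 4 late lists and in 1 early list, which was MES replicate 2 at 518. On the early side, 9186 regions missed 1 early list, MES replicate 1 at 4844, and 6513 held a peak in 1 late list, CP replicate 2 at 3326. The median over members of the highest −log10 q was 33.2 for late regions and 16.3 for the 3079, and 19.6 for early regions and 13.3 for the 9186. Without CP replicate 1 the rule gave 3186 late and 7154 early regions, and without CP replicate 2 it gave 1423 and 7891.

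Both sets lay away from promoters. Of the late regions 22 had their summit within 1 kb of a protein-coding TSS (1.72%, 95% Wilson interval 1.14 to 2.59), as did 148 early regions (3.25%, 2.77 to 3.81). Over all merged regions the share was 8.23%, and over the regions in all 8 lists it was 48.8%. Late regions lay in introns more often than early regions (47.9%, 45.2 to 50.6, against 39.1%, 37.7 to 40.6) and between genes less often (47.8%, 45.1 to 50.6, against 54.7%, 53.3 to 56.2). Over all merged regions these shares were 39.5% and 49.1%, near the intron share of the early set and the intergenic share of the late set. Their median distance to a protein-coding TSS was 54.9 kb, against 60.4 kb for early regions. Intervals here cover counting error only, since neighbouring regions are not independent, and no test was run over regions.

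Few members lay close to another of their set. A second late region lay within 20 kb of 68 late regions (5.31%), and a second early region within 20 kb of 316 early regions (6.94%), and these shares were not corrected for the larger number of early regions. GC content of the 200 bp around the summit was alike, with medians of 51.0% and 49.8%, against 64.0% in the regions found in all 8 lists.

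The few late regions at promoters included genes of muscle. The 22 regions were tabulated after the sets had been seen, and the genes named here were picked from them. At an internal TSS of NEBL, which encodes nebulette, a protein of the cardiac Z-disc, 396 kb from the outermost start, the heights were 4.33 and 6.64 in CP and 5.28 and 6.63 in CM. Another promoter of NEBL, chr10:21173411-21174861, was open in all 8 libraries, at 5.02 to 6.40, and was not called between early and late (log2 difference 0.29, limma adjusted p = 0.135). At MYL4, the atrial essential myosin light chain, they were 3.62 and 6.87 in CP and 4.56 and 4.91 in CM. At POPDC2, a cAMP-binding membrane protein of heart and skeletal muscle, they were 7.45 and 12.0 in CP and 6.94 and 7.44 in CM. At ACTA2, the smooth muscle actin that immature cardiomyocytes also make, they were 3.30 and 6.68 in the CP replicates, and 7.32 and 5.96 in those of CM. The CP and CM values overlapped at NEBL, MYL4 and ACTA2, and at POPDC2 both CM values lay just below both CP values. The others included WNT3, a Wnt ligand of the primitive streak with a further promoter open in all 8 libraries, MRGPRX2 and HPX.

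The 148 early regions at promoters included both NANOG regions. The region at the NANOG TSS had heights of 3.69 and 5.83 in ESC and 3.77 and 2.98 in MES, and the region 1.55 kb downstream had 5.73 and 4.47 in ESC and 4.58 and 4.68 in MES. The latter held a SOX match and the joint OCT-SOX motif. Promoters of ESRRB, a nuclear receptor of naive pluripotency and of FOS were in this set as well, both picked after the values were seen.

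The motifs of the sets differed more than their positions did. Counts were made in the 200 bp around the summit, at the 1258 late and 4406 early regions over 1 kb from a protein-coding TSS, and beside them at all 262323 such merged regions. The GATA motif was in 391 late regions (31.1%, 28.6 to 33.7), in 381 early regions (8.65%, 7.85 to 9.51) and in 12.0% of all regions. The NKX motif was in 16.4% of late regions (14.4 to 18.5), 10.8% of early regions (9.90 to 11.7) and 10.8% of all. The HAND E-box was in 19.6% (17.5 to 21.9), 16.2% (15.1 to 17.3) and 16.8%. These 3 were the motifs of the 12 whose interval in late regions lay above that in early regions.

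A GATA and an NKX match stood together in 64 late regions (5.09%, 4.00 to 6.44), against 51 early regions (1.16%, 0.882 to 1.52) and 1.56% of all. GATA with TEAD was in 66 late regions (5.25%), 61 early regions (1.38%) and 1.94% of all. The MEF2 motif was rare, in 8 late and 15 early regions (0.636% and 0.340%), with overlapping intervals. TEAD and LEF-TCF matches, at 18.3% and 16.9%, and at 3.74% and 4.18%, had overlapping intervals too.

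In early regions 5 motifs had the higher share. The OCT octamer was in 265 early regions (6.01%, 5.35 to 6.76), in 1 late region (0.0795%, 0.0140 to 0.449) and in 1.71% of all. The AP-1 motif was in 587 early regions (13.3%, 12.4 to 14.4), 61 late regions (4.85%, 3.79 to 6.18) and 8.43% of all. SOX was in 3.97% of early and 1.75% of late regions, and the T-box motif in 2.66% and 0.715%. The CTCF motif, the anchor of chromatin loops, was in 112 early regions (2.54%, 2.12 to 3.05) and in 1 late region (0.0795%), against 10.2% of the regions in all 8 lists that lay over 1 kb from a TSS. Thus the early set was near the share of all regions for CTCF (2.11%) and the late set was below it.

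**Figure D2:**
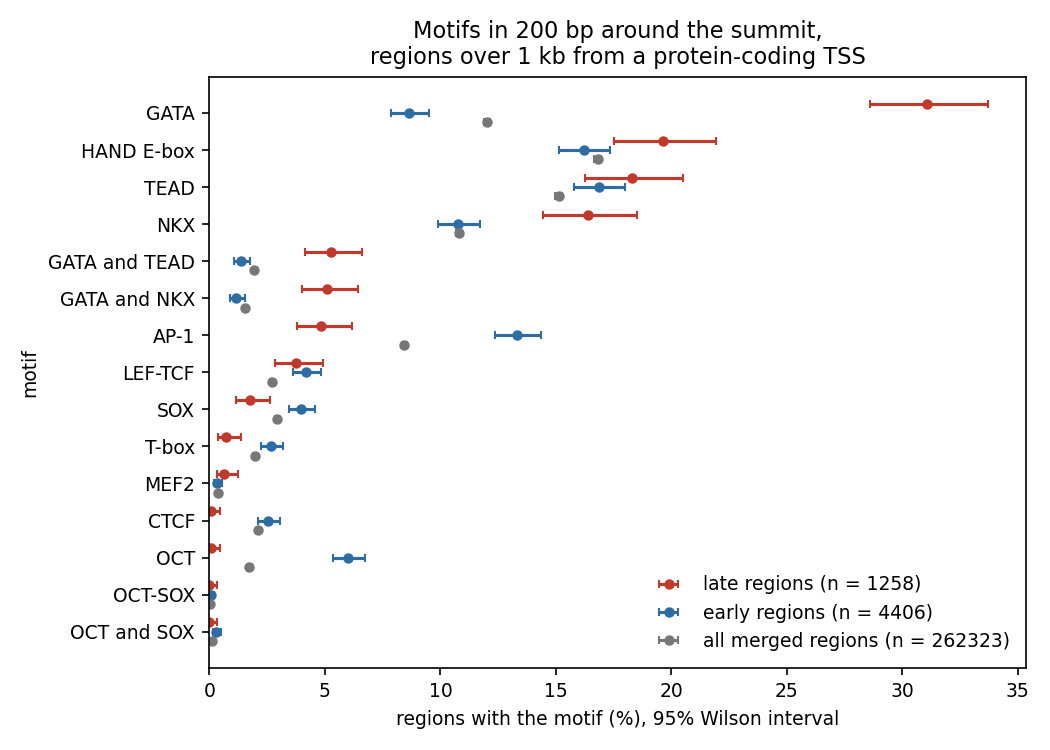
Share of regions over 1 kb from a protein-coding TSS with each motif, or pair of motifs, in 200 bp around the summit, with 95% Wilson intervals: late regions (red, n = 1258), early regions (blue, n = 4406) and all merged regions (grey, n = 262323). GATA lies farthest to the right in late regions, at 31.1%, and AP-1 and OCT lie higher in early regions, at 13.3% and 6.01%.

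The differences in GATA, NKX, OCT and AP-1 were also found without either CP replicate. That of the HAND E-box ran from 1.69 to 4.25 percentage points with 1 library left out. With CP replicate 1 left out of the merging and the rule, GATA was in 32.3% of late and 8.16% of early regions, NKX in 17.8% and 10.9%, OCT in 0.226% and 5.82%, and AP-1 in 6.67% and 13.2%. MEF2 then was in 1.39% and 0.263%, and MEF2 and TEAD joined the motifs with separate intervals. With CP replicate 2 left out, GATA was in 29.4% of late and 8.01% of early regions, NKX in 16.8% and 10.3%, OCT in 0.143% and 4.47%, and AP-1 in 6.50% and 11.2%.

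Members were also split by the stage of the 1 library with their highest peak, with heights not centred. At late regions CP replicate 2 had the highest median, 8.31, against 4.49 in CP replicate 1 and 5.21 and 5.77 in CM. The late split therefore cannot tell the CP stage from the greater height of this 1 library. Among late regions the NKX motif was in 21.1% (16.4 to 26.6) of the 247 whose highest peak was in CM and in 15.2% (13.1 to 17.6) of the 1011 whose highest peak was in CP, and these intervals overlapped. GATA was in 30.0% and 31.4%, and no motif tabulated had separate intervals in the late set. Among early regions OCT was in 7.49% (6.56 to 8.54) of the 2737 with the highest peak in ESC and in 3.59% (2.80 to 4.60) of the 1669 with the highest peak in MES. GATA went the other way, at 7.23% (6.32 to 8.27) and 11.0% (9.55 to 12.6). TEAD was in 18.5% and 14.1%, with separate intervals.

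The same motifs were counted in peaks the sets did not use. For each library, the share of peaks with a motif was taken over its peaks that lay over 1 kb from a TSS and in no late or early region, and the 4 late libraries were compared with the 4 early ones by a two-sided exact permutation test, adjusted over the 12 motifs. None passed. OCT had the smallest p: the shares were 2.59% and 2.26% for ESC, 1.64% and 1.64% for MES, 1.11% and 1.01% for CP, and finally 0.792% and 0.883% for CM. All 4 late libraries lay below all 4 early ones, with means of 0.950% ± 0.141 and 2.03% ± 0.473 (SD, n = 4), an exact permutation p of 0.0286, the smallest that 70 arrangements give, and an adjusted p of 0.257. OCT was the only motif of the 12 with a p at that value, and no single motif at it could pass the adjustment.

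GATA did not follow the early and late stages outside the sets. Its shares were 7.05% and 6.50% for ESC, 12.3% and 12.4% for MES, 10.5% and 14.5% for CP, and 11.9% and 15.4% for the CM libraries (exact permutation p = 0.171, adjusted p = 0.392). MES lay with the late libraries, above both ESC libraries. MEF2 was at 0.933% and 1.25% in CM and between 0.171% and 0.222% in the other 6 libraries (exact permutation p = 0.229, adjusted p = 0.392). CTCF means were 4.16% ± 0.507 and 4.14% ± 0.680 (SD, n = 4), with an exact permutation p of 0.943. The 4 libraries on either side are 2 stages each, so these p-values speak of these libraries.

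Regions were then assigned to genes. A locus was the gene body with 20 kb on either side, so a region can count for several genes, and long genes hold more. Of 19970 protein-coding genes, 858 (4.3%) had at least 1 late region and 2832 (14.2%) at least 1 early region, and 267 had both. Their median lengths were 110 kb and 81.2 kb, against 27.5 kb for all genes. In the loci of protein-coding genes lay 62.3% of late and 57.4% of early regions, against 62.7% of all merged regions.

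Of the 858 genes with a late region 93 held at least 2, and of the 2832 with an early region 475 did. CACNA1D, an L-type calcium channel of pacemaker and atrial cells, held 5 late and no early region among 71 merged regions of its locus. The heights of these 5, from 5′ to 3′, were 4.92, 4.70, 3.66, 5.23 and 3.03 in CP replicate 1 and 10.7, 9.88, 8.41, 8.88 and 7.66 in CP replicate 2. In CM they ran from 4.11 to 6.80 in replicate 1 and from 4.66 to 7.78 in replicate 2. The first lay 4.63 kb upstream of the gene start, chr3:53324131-53324780, and the other 4 in introns, 150 to 467 kb downstream of it. CM replicate 1 lay between the CP replicates at 4 of the 5, and at the fourth region both CM values were below both CP values.

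KIF26B, a kinesin-family gene of mesenchymal and kidney development, held 5 late and 1 early region, and BBS9, a subunit of the BBSome of cilia, 5 and 1. ADCK1, a mitochondrial kinase-like gene, held 4 and 0, and ENOX1 4 and 1. NEBL, UNC13B and SH3BP4 held 3 and 0. The LIX1, TENM3 and ENSG00000282278 loci held 3 and 1, and MTUS2 2 and 0. Only 5 genes held at least 3 late and no early region: CACNA1D, ADCK1, NEBL, UNC13B and SH3BP4. At least 3 early and no late region were found in 71 genes.

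In NEBL, the late region 369 kb from the gene's outermost start, in an intron, had heights of 5.63 and 12.0 in the CP replicates, and 6.53 and 9.47 in those of CM. The region 215 kb from it had 5.08 and 12.1 in the CP replicates, and 9.13 and 10.2 in those of CM. With the promoter region described above, the 3 regions had no peak in any ESC or MES list. The promoter region held a GATA and an NKX match.

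The genes with the largest excess of early regions were long. CNTNAP2, a neuronal adhesion gene of 2305 kb, held 10 early and 3 late regions among 234. TENM2, a teneurin of synapses, held 7 and 1 among 145, and SUMF1, which activates sulfatases, 6 and 0. STS held 6 early and 1 late region, DLG2, CSMD1 and LRP1B 5 and 1 each, and KCNN2, a small-conductance calcium-activated potassium channel, ASTN2 and MDN1 5 and 0 each. These 10 genes with an early excess are 177 to 2305 kb long, and neither the early nor the late counts were corrected for length. With each region given to its nearest protein-coding TSS instead, CACNA1D kept 5 and 0 and KCNN2 had 5 early and 1 late, while BBS9 and SUMF1 kept none.

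**Figure D3:**
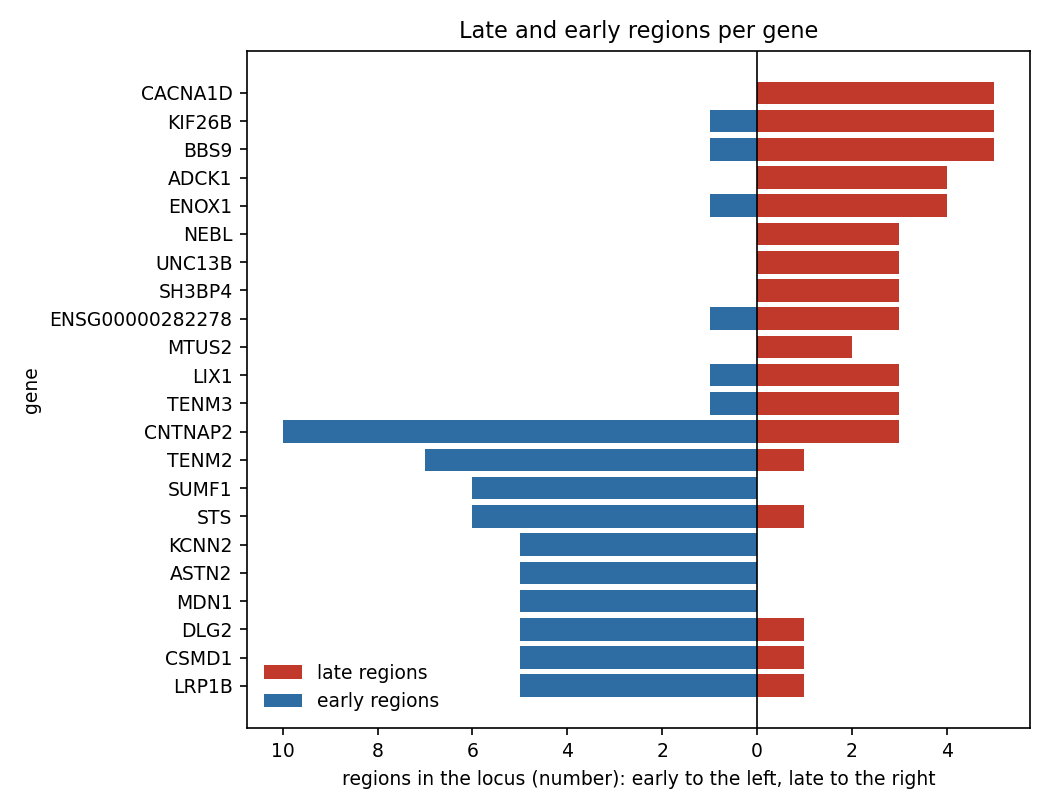
Number of late regions (red, to the right) and early regions (blue, to the left) in the loci of the 12 genes with the largest excess of late over early regions and of 10 of the 12 with the reverse. CACNA1D stands at 5 late and 0 early, and CNTNAP2 at 3 late and 10 early.

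Single regions of these loci differed between ESC and MES. In KIF26B the early region 102 kb into the gene was at 6.69 and 8.05 in ESC and at 4.02 and 3.92 in MES, 0.94 lower on the log2 scale (SE 0.20, limma adjusted p = 0.00280). In CNTNAP2 the early region 1884 kb into the gene was at 10.4 and 8.22 in ESC and 4.41 and 3.83 in MES (log2 difference −1.22, SE 0.20, adjusted p = 2.57e-04). In TENM2 the region 583 kb into the gene was at 4.84 and 3.56 in ESC and 7.80 and 6.40 in MES, a log2 difference of 0.71 (SE 0.21, adjusted p = 0.0419), while those at 380 and 814 kb fell by 0.99 and 1.01. The rise at 583 kb was lost without ESC replicate 2 or MES replicate 1 (log2 differences 0.45 and 0.48, adjusted p = 0.353 for both). With no centring the adjusted p was 0.0685 in KIF26B and 0.145 and 0.0609 at the TENM2 regions at 583 and 814 kb, with no change of sign.

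**Figure D4:**
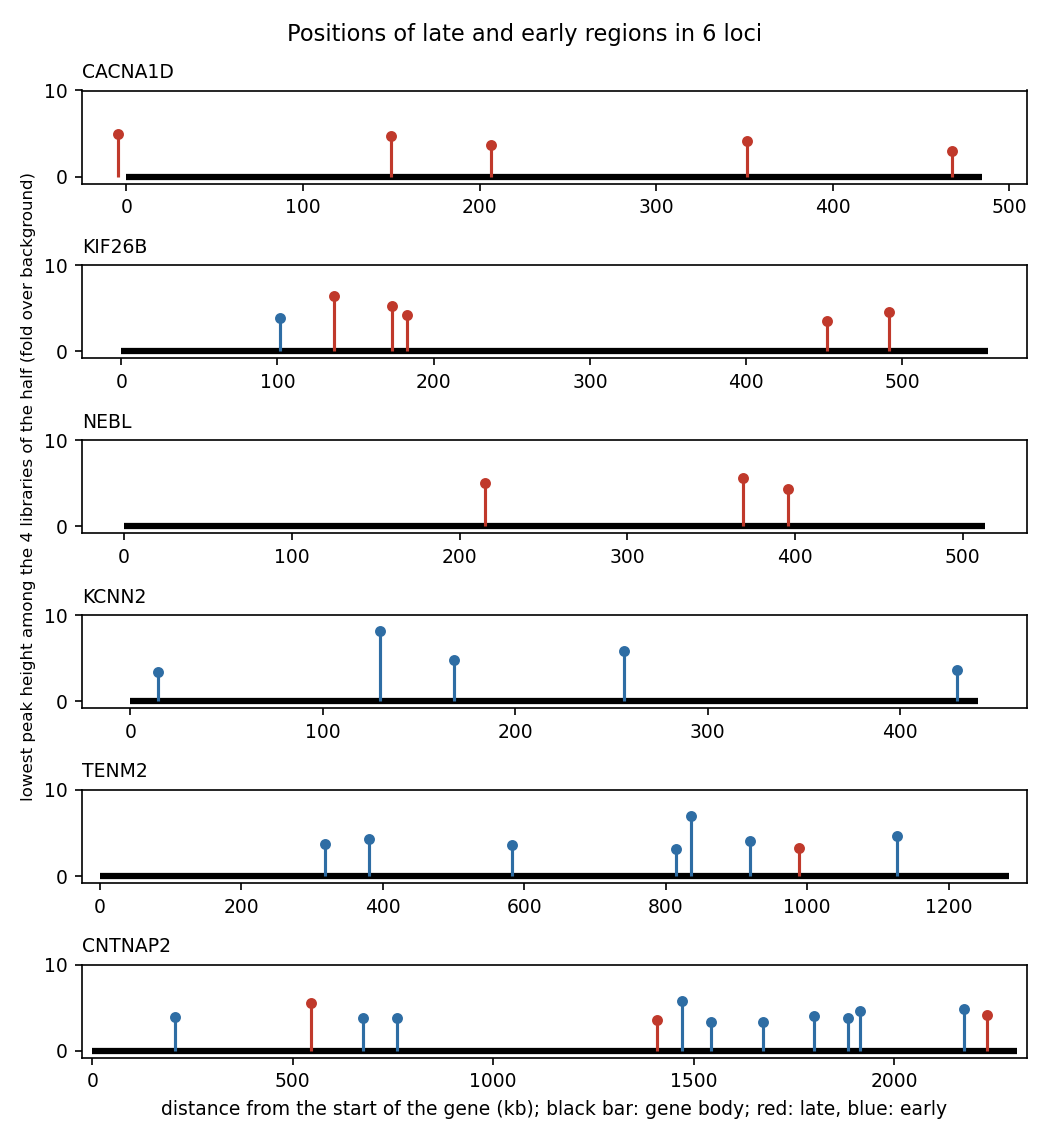
Positions of late (red) and early (blue) regions in 6 loci, as distance from the gene start in kb, with the lowest height among its 4 early or 4 late libraries as fold over background and the gene body as a black bar. In CACNA1D all 5 are late, in KCNN2 all 5 are early, and in CNTNAP2 3 late regions lie among 10 early ones.

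Gene lists were read against these background shares. Of 30 sarcomere genes 8 had a late region (26.7%, against 4.3% of all genes) and 5 an early one (16.7%, against 14.2%). Of 26 genes of calcium handling and ion channels 6 had a late (23.1%) and 10 an early region (38.5%). Of 26 pluripotency genes 0 had a late and 5 an early region (19.2%). These genes differ in length, with medians of 28.9, 91.1 and 16.2 kb, and in the median number of merged regions per locus, at 13.5, 22.0 and 9.5 against 9.0 for all genes.

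The sarcomere genes with late regions were NEBL with 3, MYH7 with 2, and MYL4, TPM1, ACTC1, XIRP1, SMYD1 and FHOD3 with 1 each. SMYD1 encodes a methyltransferase of heart and skeletal muscle that is needed to build sarcomeres. Its late region, in an intron, was at 4.70 and 10.1 in CP and 11.0 and 10.4 in CM, 0.91 higher in CM on the log2 scale after centring (SE 0.21, limma adjusted p = 0.0172). This call did not hold without CP replicate 1 (log2 difference 0.56, adjusted p = 0.0534), without CM replicate 1 or 2 (0.83 and 0.99, adjusted p = 0.166 and 0.0753) or with no centring (0.63, adjusted p = 0.274). Near MYH7, the adult ventricular myosin heavy chain, a region 18.9 kb upstream was at 5.13 and 11.4 in CP and 3.59 and 3.39 in CM (log2 difference −0.85, SE 0.24, adjusted p = 0.0641). A region 1.32 kb upstream of MYH7 was at 3.37 and 3.58 in CP and 2.63 and 3.51 in CM. TTN, the titin gene, had 1 early and no late region, at 7.11 and 9.26 in ESC and 4.97 and 8.27 in MES, and this region held a CTCF match.

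Among the channel genes, late regions were in CACNA1D, SLC8A1, HCN4, GJA5 and CORIN among others. HCN4 carries the pacemaker current, and GJA5 encodes connexin 40 of the atria. The region 5.81 kb upstream of HCN4 was at 3.40 and 7.39 in CP and 5.62 and 6.24 in CM, and that at GJA5 at 3.41 and 9.28 and at 7.36 and 8.65. In the intron of SLC8A1, at the window printed above, the heights were 6.20 and 12.0 in CP and 7.52 and 8.58 in CM. In these 3 the CM values lay between the CP replicates, whose spread was the larger.

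Early regions in channel genes were most frequent in RYR2, the calcium release channel of the sarcoplasmic reticulum, with 4, and CAMK2D and CORIN had 2 each. The 4 regions of RYR2 lay in introns 82.9 to 765 kb from the gene start. Their heights in ESC ran from 3.94 to 6.05 in replicate 1 and from 4.63 to 8.19 in replicate 2, and in MES from 3.95 to 7.46 and from 4.39 to 8.71. None of the 4 differed between MES and ESC by limma.

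Of 23 genes for cardiac transcription factors 2 had a late region (8.70%, against 4.3% of all genes), GATA4 and MEF2A, and 7 an early one (30.4%, against 14.2%), among them ZFPM2 with 3, HEY2 with 2, and HAND2, TBX20, MEIS1 and TEAD1 with 1 each. The MEF2A region, in an intron 104 kb from the gene start, held GATA, NKX and HAND E-box matches and was at 4.70 and 13.4 in the CP replicates, and 10.3 and 8.54 in those of CM. The GATA4 region was at 4.25 and 6.73 in the CP replicates, and 4.06 and 5.59 in those of CM. The early regions at HAND2, HEY2 and MEIS1 were low, between 2.54 and 3.79 in every early library. With the nearest TSS in place of the locus, 9 of the 23 had a late and 11 an early region.

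The pluripotency genes with early regions were NANOG with 2 and L1TD1, OTX2, ZIC2 and FGF2 with 1 each. FGF2, the growth factor that sustains hESCs, had its region in an intron at 5.78 and 5.23 in ESC and 4.16 and 3.33 in MES (log2 difference −0.62, SE 0.21, limma adjusted p = 0.0740). The region of OTX2 was at 2.82 and 2.25 in ESC and 2.88 and 2.64 in MES. With the nearest TSS, 11 of the 26 had an early and 1 a late region.

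The remaining lists held few members, with shares mostly near the 4.3% and 14.2% of all genes. Of 20 genes of the primitive streak and mesoderm 1 had a late region (WNT3, 5.0%) and 2 an early one (10.0%). Of 30 Wnt pathway genes 2 had a late region (WNT5B and ZNRF3, 6.67%) and 4 an early one (AXIN2, TCF7L2, FRZB and LGR5, 13.3%). Markers of other cell types were at 1 late (CDH5) and 2 early of 16 endothelial and blood genes (6.25% and 12.5%), and 2 late (COL1A1 and ACTA2) and 3 early of 16 epicardial, stromal and smooth muscle genes (12.5% and 18.8%). They were at 0 late and 2 early of 14 endoderm genes (14.3% early), and 0 and 3 of 16 neural genes (18.8% early). The part of other cell types in the late set was not tested. The CDH5 region, 42.1 kb from the TSS of this endothelial cadherin, was at 4.92 and 9.46 in the CP replicates, and 8.27 and 6.58 in those of CM.

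The height of members was next compared between the 2 stages of 1 set, which the rule did not use. Log2 fold was centred on the median of each library and tested by limma over all regions with a peak in all 4 lists of these stages. Early regions were called lower in MES than in ESC more often than higher: 609 of 4554 (13.4%) were called lower and 123 (2.70%) higher, against 3.22% and 3.06% of all 59700 regions tested. The median difference of early regions was −0.17 on the log2 scale (quartiles −0.44 and 0.06), against 0.01 over all regions. With 1 library left out, 357 to 556 early regions were called lower and 85 to 122 higher. With no centring, 101 were lower and 34 higher, against 0.410% and 0.826% of all regions.

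The share called lower varied with the motif. Of the 265 early regions with the octamer 67 were called lower in MES (25.3%) and 5 higher, with a median of −0.40, and with no centring 15 were lower (5.66%) and 2 higher. Among the 175 with the SOX motif 34 were lower (19.4%) and 5 higher, or 4 and 1 with no centring. LEF-TCF and TEAD were close to SOX, with 34 of 184 (18.5%) and 131 of 743 (17.6%) lower, and among the 1783 with none of the 12 motifs 198 (11.1%) and 40. The 117 regions with a T-box motif had 10 called lower and 10 higher, and the 381 with GATA 45 lower (11.8%) and 23 higher (6.04%). These subsets were tabulated after the sets were seen, and no test was run between them.

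The early regions with the largest called falls were a site 230 kb from the TSS of TET2, at 13.5 and 14.4 in ESC and 4.30 and 4.05 in MES, and a site 769 kb from PLOD2, at 12.9 and 15.3 and at 4.52 and 4.05. Their log2 differences were −1.80 (SE 0.18, limma adjusted p = 3.41e-07) and −1.76 (SE 0.18, adjusted p = 3.68e-07). The largest called rise was at a site 227 kb from MRPS30, at 4.84 and 4.45 in ESC and 16.3 and 16.4 in MES (log2 difference 1.76, SE 0.16, adjusted p = 1.83e-07). A site in an intron of PDE4D, a cAMP phosphodiesterase, was at 4.00 and 3.92 in ESC and 11.3 and 11.4 in MES. In each of these 4 the replicates of ESC and of MES did not overlap, and each call held under every alternative tried.

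Late regions gave no firm direction between CP and CM. Of the 1280, 66 (5.16%) were called higher in CM and 6 (0.469%) lower, against 0.672% and 0.952% of all 33503 regions tested, with a median of 0.16 against 0.08. Without CP replicate 1 the counts were 64 higher and 54 lower (5.00% and 4.22%, against 2.39% and 1.98% of all) and the median was −0.05, and without CP replicate 2 they were 176 and 2. With no centring 2 were higher and 9 lower, against 10 and 469 of all 33503, and the median of all regions moved from 0.08 to −0.20.

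Some late regions differed clearly between CP and CM in all 4 libraries. In an intron of DLG2 a late region was at 3.42 and 6.07 in CP and at 12.0 and 12.8 in CM (log2 difference 1.72, SE 0.21, limma adjusted p = 5.32e-05). In an intron of RFX3, a ciliary transcription factor, 1 was at 3.20 and 3.48 in CP and 11.2 and 8.38 in CM (1.82, SE 0.23, adjusted p = 7.03e-05). The lower ones included a site 1232 kb from ZEB2, at 6.86 and 11.0 in CP and 3.64 and 3.57 in CM (−0.99, SE 0.22, adjusted p = 0.0158), and a site in an intron of GPC5, at 9.28 and 10.6 in CP and 3.77 and 5.09 in CM (−0.90, SE 0.22, adjusted p = 0.0271). In all 4 the CP and CM values did not overlap. The calls in DLG2 and RFX3 held under every alternative tried. That near ZEB2 was lost without CP replicate 2 or either CM replicate (adjusted p = 0.0631, 0.0595 and 0.167), and that in GPC5 without CP replicate 1 or either CM replicate (adjusted p = 0.0691, 0.309 and 0.0548).

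The last comparison asked whether open sites shared by all 8 libraries differed between late and early stages near members. Over the 28115 shared regions, the limma contrast of the late against the early stages called 1522 higher (5.41%) and 1560 lower (5.55%). With no centring the calls were 136 and 1270, and the median of all regions moved from 0.06 to −0.06. At 13707 promoter regions 748 were higher (5.46%) and 115 lower (0.839%). Promoters of genes with a late and no early region had 29 higher and 9 lower of 532 (5.45% and 1.69%), and promoters of genes with an early and no late region 173 and 22 of 2027 (8.53% and 1.09%). The former share higher was near the background of promoters. With no centring the counts were 2 and 9, and 6 and 18, so the direction of both groups turned. Calls over all 28115 shared regions also moved to the lower side with no centring, so this turn was not particular to these promoters. These classes, at least 1 region and none of the other kind, were set after only 5 genes had been found with at least 3 late and no early region.

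Among the 5 genes with at least 3 late and no early region, 1 promoter passed, that of SH3BP4, an adaptor of endocytosis. Over all promoter regions 5.46% were higher, so this 1 call is no result about these genes as a group. The SH3BP4 promoter was at 3.15, 4.72, 4.07 and 2.98 in the early and at 3.38, 7.19, 5.21 and 8.38 in the late libraries (log2 difference 0.77, SE 0.19, limma adjusted p = 0.0220). With 1 or more late regions, the higher promoters included RBM20, a splicing factor of titin, at 4.13 to 4.78 in the 4 early and 6.40 to 7.55 in the 4 late libraries (0.73, SE 0.11, adjusted p = 0.00142). MYLK3, the cardiac myosin light chain kinase, ran from 2.64 to 4.78 and from 4.50 to 6.84 (0.72, SE 0.12, adjusted p = 0.00275). The lower ones included PARD3, a polarity gene, at 8.75 to 10.8 early and 3.05 to 6.72 late (−0.95, SE 0.14, adjusted p = 0.00105). For RBM20 and PARD3 the early and late values did not overlap and the calls held under every alternative tried. For MYLK3 and SH3BP4 they overlapped, and with no centring the adjusted p was 0.0656 and 0.161. SH3BP4 was also lost when 1 library was left out, which held for ESC replicate 1 and for replicate 2 of MES, of CP and of CM (log2 differences 0.63, 0.62, 0.58 and 0.62, adjusted p = 0.0837, 0.105, 0.0602 and 0.0955).

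Among genes with early and no late regions, named promoters moved both ways. The largest rise among these promoters was at FILIP1, a filamin-interacting gene of muscle, from 4.35 to 7.75 in the early to 9.84 to 13.5 in the late libraries (log2 difference 1.04, SE 0.10, limma adjusted p = 7.15e-05). ANK2, the ankyrin that anchors ion transporters in cardiomyocytes, had 1 early and no late region and a promoter 0.71 higher in the late libraries (SE 0.13, adjusted p = 0.00485), or 0.58 higher with an adjusted p of 0.0904 when not centred. RAB25, a trafficking gene of epithelia, fell by 0.74 (SE 0.14, adjusted p = 0.00374), and EGF fell by 0.64 (SE 0.12, adjusted p = 0.00570). Of genes with at least 3 early and no late region, 7 of 78 promoter regions were higher, SEMA3A and MDN1 among them, and 2 were lower, NRXN3 and MAGI2, and none of the 78 was called with no centring.

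The listed genes' promoters that passed were higher in the late libraries, with 1 exception, against 5.46% higher and 0.839% lower over all promoter regions. Among cardiac transcription factors 6 of 22 promoter regions were higher and 0 lower, those of NKX2-5, HAND1, TBX20, TBX3, HEY2 and MEIS2. Among pluripotency genes 4 of 17 were higher, SOX2, ZSCAN10 and FGF2 among them, and 0 lower. Some other lists had like shares, with 4 of 9 neural, 3 of 8 endothelial and blood and 6 of 27 Wnt pathway promoter regions higher. In these lists 0 were lower. Smaller shares were higher elsewhere, at 2 of 22 for calcium handling and ion channels and 1 of 15 for primitive streak and mesoderm. For epicardial, stromal and smooth muscle genes it was 1 of 11, and for endoderm 0 of 9. None of the 11 sarcomere promoter regions passed. The exception was CER1, an antagonist of Nodal made by endoderm, which fell by 0.60 (SE 0.13, limma adjusted p = 0.00858). With no centring CER1 alone of these listed genes passed, and NKX2-5, for example, was 0.30 higher with an adjusted p of 0.200.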

How the data were processed

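ATAC-seq was measured in 8 libraries, 2 replicates of each of 4 stages of RUES2 differentiation, and groups follow the labels' cell types. The authors aligned reads to hg38 with BWA (0.7.13 in the submitters' processing notes), kept reads with a mapping quality above 30, dropped PCR duplicates (Picard) and ran the peak caller MACS2 on each library (2.1.0 there, with a q threshold 0.01, reads shifted by 100 bp and extended to 200 bp). The deposited files give, for each peak, a fold over local background (a ratio), the −log10 p and −log10 q and an integer score, with no read counts, and replicates were not pooled. Calling peaks in each library makes presence depend on depth and signal, which the lists do not give. Peaks on other contigs and the score were not used in the comparisons.

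Peaks were merged with bedtools 2.31.1, and a region's height in a library was the fold of its highest peak. Regions were annotated with the protein-coding genes of GENCODE 44. Heights were tested as log2 fold, centred on each library's median over the regions tested, with limma 3.58.1 (R 4.3.3, trend, stage as factor, no replicate block), with Benjamini-Hochberg adjustment over all regions tested and a threshold of 0.05. limma and the permutation test were tested on simulated data. Presence and height of members were used by the rule and are given without a test between early and late stages. Shares have 95% Wilson intervals. A repeat-masked share was planned and not computed, since the genome used here has no masking.

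The members, gene lists and tests were chosen with earlier results of these data known. Genes named are the 12 with the largest excess of late and the 12 with that of early regions, up to 4 per list and direction with the most regions, and the 5 promoters with the largest called change per direction and gene class. Some genes that this rule names are not reported here. Regions named for their change between CP and CM or ESC and MES were picked after their values were seen. Alternatives were a stricter −log10 q of 5, lists cut to the same number of peaks, a 50% coverage, 3 of 4 lists, other windows and TSSs, other scalings, a pseudocount of 1, 2 groups in place of 4 stages, a replicate block and leaving out each library. Replicates are separate samples of 1 line, so p-values measure the spread between these samples.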

Additional observations from a re-analysis of the deposited data

Results flagged for a closer look

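Peaks on unplaced and alternate contigs, which no comparison used, numbered 65 in the library with the fewest and 142 in the library with the most. In the 34 groups of 4 early or 4 late libraries that were screened for 1 value far from the others (peak numbers, background, heights and motif shares), 0 had such a value, where chance gives about 1 in 20.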

How the results depend on the processing

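Across the alternatives no region called in the reported fits changed sign. Requiring peaks to cover 50% of a merged region left 780 late regions. Lists of equal length left 1415 early regions, against 4554 with the full lists. Presence in 3 of 4 lists gave 4359 late and 13740 early regions. Leaving out 1 library gave 1317 to 3186 late regions, the most without CP replicate 1, and 4672 to 9419 early regions, the most without MES replicate 1. The share of late regions within 1 kb of a TSS was 5.38% with lists of equal length, above the reported 1.72% of late and 3.25% of early regions. With the TSSs of all transcripts it was 6.80% of late and 9.68% of early regions. It was 1.62 to 2.61% and 3.32 to 4.36% with 1 library left out. The motifs with separate intervals then numbered 2 to 5 on the late side. The difference of the CTCF share outside both sets, 0.0166 percentage points as reported, turned to −1.31 with lists of equal length and to −0.113 in a 100 bp window, and ran from −0.223 to 0.296 with 1 library left out, with no adjusted p at or under 0.05 for any motif in any setting.

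Over regions in all 8 lists, 136 were higher with no centring, 961 with quantile normalization and 417 with 2 groups, and 457 were lower with 2 groups. With 1 library left out 510 to 1836 were higher and 675 to 1775 lower, both lowest without MES replicate 2. For CM against CP, 10 were higher with no centring, and 74 were higher and 180 lower with quantile normalization, with 57 to 801 higher and 89 to 665 lower when 1 library was left out. For MES against ESC, 493 were higher and 245 lower with no centring, and 1210 to 1758 higher and 1347 to 1662 lower with 1 library left out. Of the late regions 2 were higher in CM with no centring, 27 higher and 2 lower with quantile normalization, 40 higher where every −log10 q was at least 5, and 20 to 176 higher and 1 to 54 lower with 1 library left out. Of the early regions 34 were higher and 101 lower in MES with no centring, and 85 to 122 and 357 to 556 with 1 library left out. With the nearest TSS, 11 genes had at least 3 late and no early region and 221 the reverse, and 43 genes of the lists had a late and 72 an early region. The cause of these changes was not tested.

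Whether the replicate numbers pair the samples was not settled. Correlations of the deviations of same-numbered samples from their stage means ran from −0.119 to 0.192 over the 6 pairs of stages. They were 0.129 for ESC with MES, 0.133 for ESC with CP and 0.192 for MES with CP. With CM they were −0.119 for ESC, 1.27e-04 for MES and −0.00475 for CP. With the replicate block 342 regions were higher in CM than in CP, and 100 late regions were higher and 14 lower in CM. The other counts under the block stayed within 1.5 times those reported. Depth cannot be read from the lists. The repeat-masked share was not run.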
